A study of Mus musculus with 8 samples.

Results

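Glycolysis and the pentose phosphate pathway were examined in mouse blood-forming stem and progenitor cells through 34 genes, taken as the rows that carry 35 listed gene symbols. The pyruvate kinase gene was listed under both its symbols, Pkm and Pkm2, and the files carry it as Pkm2, so 1 listed symbol had no row. The 34 genes are part of 23284 gene symbols with a value in every library. Levels are FPKM, the sequenced fragments of a gene divided by its transcript length and by a measure of the size of the library. All 34 had at least 1 FPKM in at least 2 of the 8 libraries, and so entered the tests, which ran on 11931 genes.

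Glycolysis turns glucose into pyruvate in the cytosol and yields ATP, and lactate dehydrogenase then converts pyruvate into lactate and back. The pentose phosphate pathway branches off at glucose-6-phosphate, making NADPH in its oxidative arm and ribose phosphate and sugar intermediates in its other arm. Most steps can be carried out by several isoenzymes from separate genes, and hematopoietic stem cells are known for relying on glycolysis while they are quiescent in the marrow.

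All mice were C57BL/6 males of 12 to 13 weeks, fasted for more than 14 hours overnight before each injection and fed freely by day. They received intravenous injections for 7 days, either of glucose (2 g/kg), of the same glucose with a lipid emulsion (Intralipid 20%, 6 mL/kg), or of PBS as the control, and marrow from femurs and tibias was taken on day 8. Lineage- Sca-1+ c-Kit+ cells (LSK, the marrow fraction that holds stem cells and multipotent progenitors) were sorted, and RNA from about 10000 of them was made into a sequencing library. The 8 libraries were glucose replicates 1 and 2, glucose with lipid replicates 1 and 2, and PBS replicates 1 to 4. The series states that each treatment had its own PBS controls but not which they were. PBS replicates 1 and 2 share the letters H and I and a column tag with glucose with lipid and were taken as its controls, and PBS replicates 3 and 4 (letters J and K) were taken as the controls of glucose, an assignment inferred from names only. The labels call the samples biological replicates without saying whether each came from 1 mouse or a pool, so p-values measure the spread between these samples.

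Depth, estimated from the step between neighbouring values, was about 5680000 to 8250000 fragments per library. The 11 stem and progenitor markers were all above 1 FPKM in every library and summed to between 1699 and 2125 FPKM. Glucose with lipid replicate 1 stood apart. The 13 neutrophil markers found, of 14 listed, summed to 66321 FPKM there against 399 to 796 FPKM in the other 7 libraries, and all 13 had their highest value in it. The 8 monocyte and macrophage markers found, of 9 listed, summed to 579 FPKM there against 35.3 to 67.9 FPKM elsewhere, again with all 8 highest in that library. The 9 erythroid markers summed to 2031 and 1197 FPKM in the glucose with lipid libraries and 276 to 623 FPKM in the other 6. In replicate 1 the 7 B cell markers summed to 192 FPKM against 40.7 to 72.6 FPKM elsewhere, all 7 highest there. The 5 mast cell and basophil markers summed to 268 FPKM there against 18.5 to 128.9 FPKM elsewhere. Of these, 3 were highest there, while Cpa3 and Fcer1a were higher in PBS replicate 2. The 8 T and NK cell markers summed to 428 FPKM there, within the 332 to 475 FPKM of the other libraries, although 5 of the 8 were highest there. Values that rest on replicate 1 are given with and without it. In bulk samples like these, fewer cells of a type and less RNA per cell cannot be told apart.

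LSK cells carried glycolytic mRNAs over a wide range of levels. In the 4 PBS libraries, 4 of the 34 genes had a mean of at least 300 FPKM, 4 lay between 100 and 300, 15 between 10 and 100, and 11 below 10. The most abundant was Ldha, the lactate dehydrogenase A subunit, at 954 ± 250 FPKM (SD, n = 4), rank 42 among all genes. Pyruvate kinase followed at 444 ± 101 FPKM (SD, n = 4), then aldolase A (Aldoa) at 419 ± 89.9 and triose phosphate isomerase (Tpi1) at 406 ± 71.8. Among the pentose phosphate genes, transketolase (Tkt) had a mean of 222 ± 30.4 FPKM, transaldolase (Taldo1) 209.9 ± 45.2 and the lactonase Pgls 197 ± 40.6 (SD, n = 4 each). The plot of levels by library shows the spread of each gene. For 9 genes the highest library was within 1.5 times the lowest, and for 12 it was more than 2 times the lowest.

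**Figure D1:**
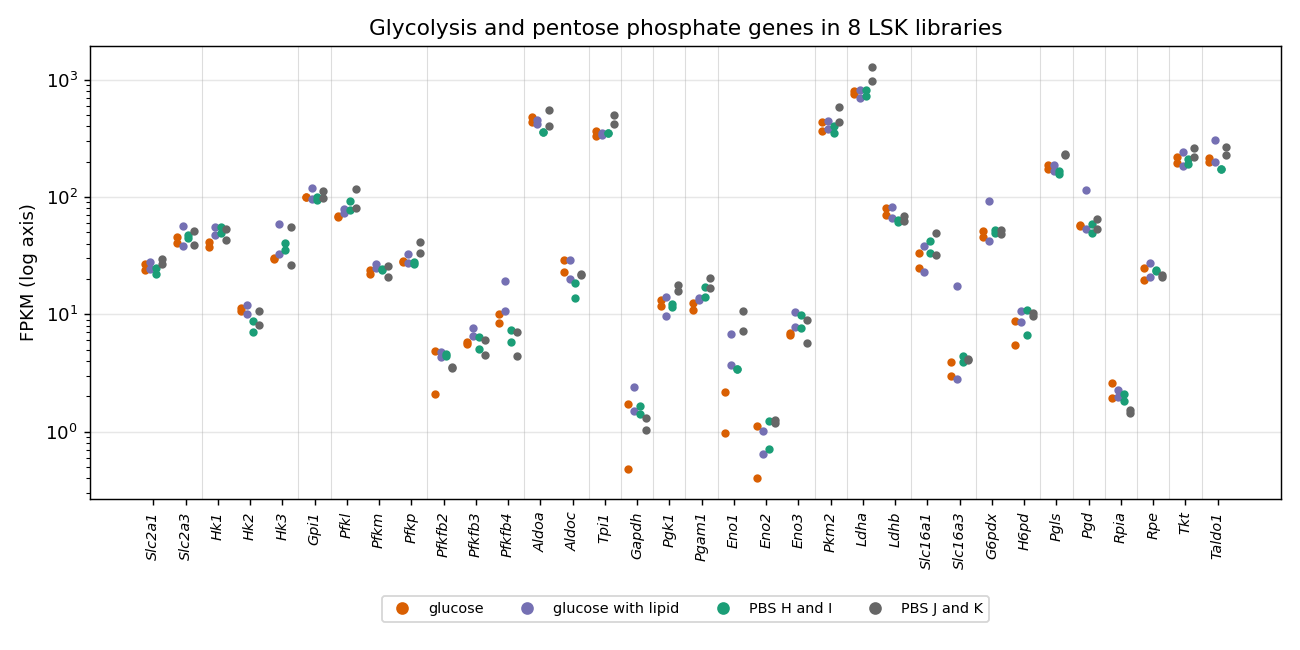
FPKM on a log axis for the 34 genes, ordered along the pathways, with 1 point per library coloured by group and light lines between steps. Ldha, Pkm2, Aldoa and Tpi1 lie highest, and Slc16a3, Pgd and G6pdx each have 1 glucose with lipid library above all others.

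Glucose import and phosphorylation used several isoforms at once. The glucose transporter GLUT3 (Slc2a3) made up 63.6 ± 4.6% (SD, n = 4) of the summed FPKM of Slc2a3 and Slc2a1 (GLUT1) in PBS libraries. Slc2a3 was listed at 40.3 and 45.6 FPKM in glucose, 56.3 and 38.3 in glucose with lipid, and 47.1, 44.6, 51.0 and 39.0 in PBS replicates 1 to 4. The groups overlapped throughout. Slc2a1 lay between 22.2 and 29.7 FPKM, and the Slc2a3 share ranged from 56.7% to 69.8% over the 8 libraries.

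Hexokinase, which traps glucose as glucose-6-phosphate, was mainly Hk1 and Hk3. In PBS libraries Hk1 took 51.7 ± 5.0%, Hk3 39.4 ± 5.2% and Hk2, the form often induced in proliferating cells, 8.86 ± 1.2% of the hexokinase FPKM (SD, n = 4). Hk1 was listed at 41.2 and 37.6 FPKM in glucose, 55.2 and 47.8 in glucose with lipid, and 55.6, 49.7, 52.9 and 43.2 in PBS replicates 1 to 4. Both glucose libraries lay below all 4 PBS libraries, and the glucose with lipid libraries lay among them. Hk2 was listed at 10.8 and 11.4 FPKM in glucose, 12.0 and 10.03 in glucose with lipid, and 8.79, 7.04, 10.7 and 8.11 in PBS, so the treated libraries lay high and only PBS replicate 3 reached into their range. As a ratio of levels, Hk1 over Hk2 was 3.31 to 4.76 in the 4 treated libraries and 4.96 to 7.06 in the 4 PBS libraries, with no overlap. All other isoform ratios computed overlapped between treated and PBS libraries, and no count over other genes was made. The Hk2 share of hexokinase FPKM overlapped too, at 9.5% to 14.4% in treated and 7.6% to 10.4% in PBS libraries. Hk3, a hexokinase known from myeloid cells, ranged from 26.5 to 59.1 FPKM and was highest in glucose with lipid replicate 1 and PBS replicate 3. No test was run on ratios or shares.

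Glucose phosphate isomerase (Gpi1), which makes fructose-6-phosphate, was listed at 101 and 99.3 FPKM in glucose, 120.2 and 96.9 in glucose with lipid, and 100.3, 94.7, 113 and 98.1 in PBS, with overlap between all groups. Phosphofructokinase, the main committed step of glycolysis, was mostly the liver-type subunit Pfkl. Pfkl was listed at 69.0 and 68.0 FPKM in glucose, 78.7 and 72.4 in glucose with lipid, and 92.2, 78.0, 117 and 81.0 in PBS replicates 1 to 4. Only glucose with lipid replicate 1 reached into the PBS range, by a narrow margin. The Pfkl share of phosphofructokinase FPKM was 57.0% to 57.6% in the treated libraries and 59.9% to 64.2% in PBS, without overlap. The muscle-type subunit Pfkm filled 18.3% to 21.1% in treated and 14.0% to 18.3% in PBS libraries, where 18.31% and 18.26% were the nearest values, and the platelet-type Pfkp overlapped. Pfkm lay between 20.8 and 26.6 FPKM and Pfkp between 27.02 and 41.6 FPKM, the latter highest in PBS replicate 3.

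The Pfkfb enzymes set the level of fructose 2,6-bisphosphate, the activator of phosphofructokinase. The 3 listed forms had PBS means of 6.16 ± 1.3 FPKM for Pfkfb4, 5.49 ± 0.91 for Pfkfb3 and 4.01 ± 0.59 for Pfkfb2 (SD, n = 4). Pfkfb4 was listed at 9.97 and 8.46 FPKM in glucose, 19.4 and 10.8 in glucose with lipid, and 7.37, 5.83, 4.44 and 7.01 in PBS. Every treated library lay above every PBS library. Pfkfb3 lay between 4.47 and 7.68 FPKM and Pfkfb2 between 2.08 and 4.91 FPKM over the 8 libraries. The Pfkfb4 share of the summed FPKM of these 3 forms was 48.8% to 61.8% in treated and 31.8% to 46.7% in PBS libraries. A further form outside the 34 genes, Pfkfb1, was listed at 3.51 to 6.28 FPKM. With it in the sum, the Pfkfb4 share was 40.7% to 55.0% in treated and 23.6% to 36.6% in PBS libraries, again without overlap. Of 22 shares of listed isoforms over 9 steps, these of Pfkl, Pfkm and Pfkfb4 were the 3 in which the 4 treated and 4 PBS libraries did not overlap. Shares within a step depend on each other and on which isoforms are listed. No count over other genes was made for comparison.

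**Figure D2:**
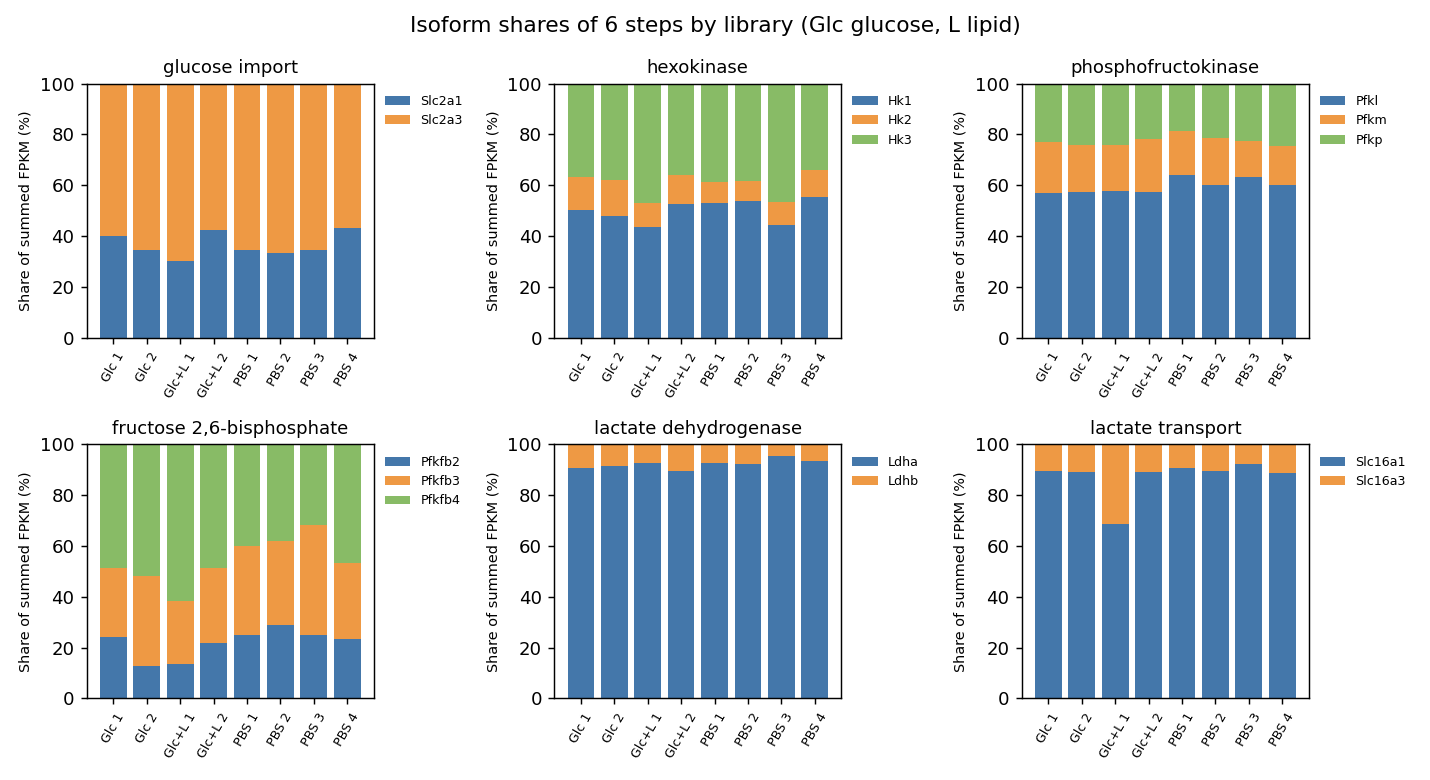
Share of each listed isoform in the summed FPKM of those listed for its step (percent, stacked to 100) in each of the 8 libraries for 6 steps. The Pfkl share is 57.0% to 57.6% in the 4 treated libraries and at least 59.9% in PBS, and the Slc16a1 share is 68.8% in glucose with lipid replicate 1 against 88.8% to 92.3% in the PBS libraries.

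In lower glycolysis, aldolase was 95.6 ± 0.75% Aldoa in PBS libraries (SD, n = 4), with the brain-type Aldoc at 4.37 ± 0.75%. Aldoa was listed at 478 and 439.7 FPKM in glucose, 456 and 424 in glucose with lipid, and 360.2, 360.2, 550.0 and 405 in PBS, where PBS replicates 1, 2 and 4 lay below and replicate 3 above every treated library. Aldoc was listed at 23.2 and 28.8 FPKM in glucose, 20.2 and 29.0 in glucose with lipid, and 18.4, 13.8, 21.5 and 22.0 in PBS. Its treated libraries lay above PBS except glucose with lipid replicate 1, which fell between PBS replicates 1 and 3.

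Tpi1, which interconverts the triose phosphates, was listed at 365 and 331 FPKM in glucose, 339 and 349.9 in glucose with lipid, and 353, 350.5, 503 and 416 in PBS. PBS replicates 3 and 4 stood above the other 6 libraries. Pyruvate kinase (Pkm2), the last step before pyruvate, was listed at 435 and 363 FPKM in glucose, 445 and 382 in glucose with lipid, and 401, 351, 586 and 436 in PBS. PBS replicate 3 was highest and the groups overlapped. The single row gives no split between the M1 and M2 splice forms of the gene.

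Lactate dehydrogenase was 93.5 ± 1.4% Ldha and 6.52 ± 1.4% Ldhb in PBS libraries (SD, n = 4). Ldha was listed at 808 and 761 FPKM in glucose, 824 and 694 in glucose with lipid, and 813, 733, 1298 and 974 in PBS, so PBS replicates 3 and 4 again lay above the other 6 libraries. Ldhb, the heart-type subunit, was listed at 80.9 and 69.9 FPKM in glucose, 65.98 and 81.9 in glucose with lipid, and 63.4, 60.9, 62.6 and 68.4 in PBS. Only glucose with lipid replicate 1 lay within its PBS range. The ratio of Ldha to Ldhb levels was 8.47 to 12.5 in treated and 12.0 to 20.7 in PBS libraries, overlapping through glucose with lipid replicate 1 and PBS replicate 2.

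Lactate leaves or enters cells through monocarboxylate transporters, of which the 34 genes hold MCT1 (Slc16a1) and MCT4 (Slc16a3). Of their summed FPKM, Slc16a1 made up 90.3 ± 1.5% in PBS libraries (SD, n = 4). MCT2 (Slc16a7), outside the 34 genes, was listed at 6.99 to 11.4 FPKM. With it in the sum the Slc16a1 share was 73.6 ± 4.9% in PBS (SD, n = 4), 69.2% to 79.2%, and 61.1% to 68.7% in treated libraries. These ranges did not overlap, whereas those without Slc16a7 did. Slc16a1 was listed at 33.5 and 24.7 FPKM in glucose, 38.3 and 22.7 in glucose with lipid, and 42.6, 33.6, 49.5 and 32.2 in PBS, with overlap between all groups. Slc16a3, known as the export form of highly glycolytic cells, was listed at 3.88 and 3.00 FPKM in glucose, 17.4 and 2.80 in glucose with lipid, and 4.42, 3.89, 4.14 and 4.07 in PBS. The high value was that of glucose with lipid replicate 1 alone, the library with the neutrophil markers. The part of these markers in the Slc16a3 level was not tested.

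A few abundant housekeeping enzymes were listed at low values, and their genes have near-identical copies elsewhere in the genome. The coding sequence of each gene was searched against the transcripts of GENCODE vM21 (GRCm38), counting as a copy a match of at least 90% identity over at least 50% of the coding bases at another locus outside the 34 genes. Copies were found for 12 genes and none for 22. For 4 genes the closest copy was at least 99% identical: Gapdh with 160 copies, of which 150 were annotated as pseudogenes, Pgk1 with 2, Pgam1 with 3 and Eno1 with 6. These 4 had mean levels of 1.44 FPKM (Gapdh, glyceraldehyde phosphate dehydrogenase), 13.3 (Pgk1, phosphoglycerate kinase), 14.8 (Pgam1, phosphoglycerate mutase) and 4.78 (Eno1, enolase 1) over the 8 libraries. The other 8 genes had closest copies of 93.6% to 98.7% identity and included Ldha, Pkm2, Aldoa and Tpi1, the most abundant of all. How reads that match several loci were counted is not given in the sources used here, and its part in these levels was not tested.

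**Figure D3:**
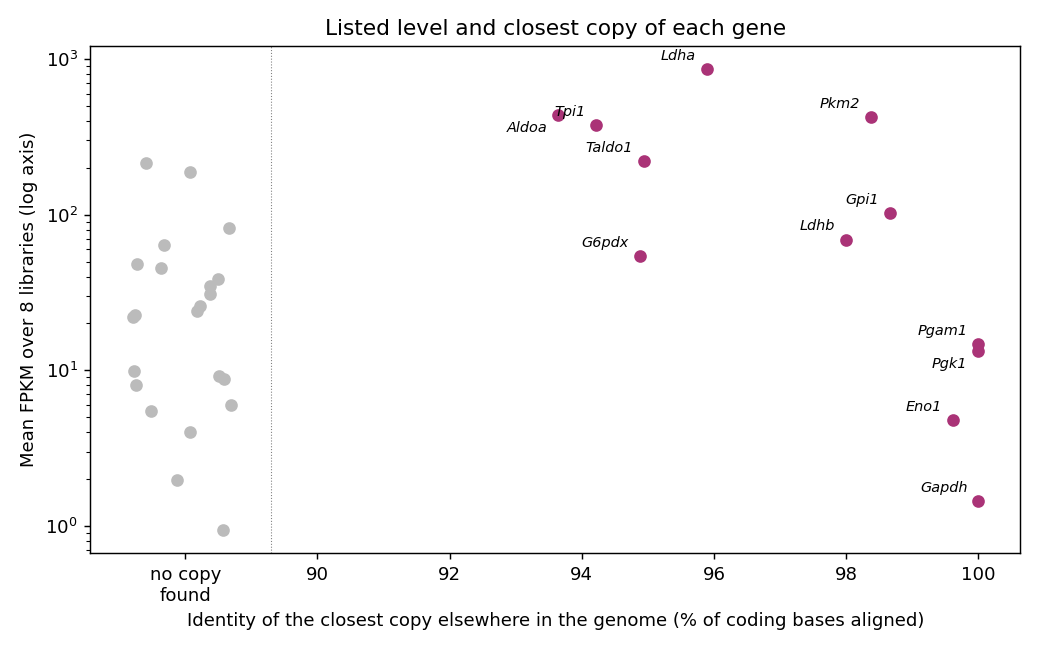
Mean FPKM over 8 libraries on a log axis against the identity of the closest copy in percent of aligned coding bases, with 1 point per gene and the 22 genes without a copy in the strip at the left, spread sideways only for legibility. The 4 genes with a copy at or above 99% identity have means of 1.44 to 14.8 FPKM.

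Gapdh was listed at 0.474 and 1.73 FPKM in glucose, 1.51 and 2.39 in glucose with lipid, and 1.66, 1.40, 1.03 and 1.31 in PBS, which comes to about 4 to 25 fragments per library, so differences were not read at this depth. Eno1 was listed at 0.971 and 2.17 FPKM in glucose, 3.69 and 6.77 in glucose with lipid, and 3.39, 3.43, 7.18 and 10.7 in PBS, about 14 to 127 fragments. Its range was wide, with glucose lowest and PBS replicates 3 and 4 highest. The gene Gm5506, listed by RefSeq as a synonym of Eno1b, has a coding sequence 99.4% identical to that of Eno1 and was listed at 82.8 to 123 FPKM. Summed, the 2 rows gave 96.05 and 86.9 FPKM in glucose, 112 and 89.5 in glucose with lipid, and 98.05, 88.8, 131 and 101 in PBS. Counted with Gm5506, Eno1 itself took 0.94% to 9.6% of enolase FPKM over the 8 libraries, and Gm5506 took 82.0% to 92.2% in the treated and 81.3% to 89.7% in the PBS libraries. The muscle-type Eno3 was listed at 6.70 and 6.85 FPKM in glucose, 7.78 and 10.4 in glucose with lipid, and 9.82, 7.69, 5.74 and 8.93 in PBS, with PBS values on both sides of glucose, and the neuronal Eno2 at 0.401 to 1.24 FPKM.

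Pgam1 was listed at 12.5 and 10.8 FPKM in glucose, 13.1 and 13.8 in glucose with lipid, and 17.0, 14.0, 20.2 and 16.8 in PBS, about 123 to 209 fragments. Every treated library lay below every PBS library, the nearest pair being glucose with lipid replicate 2 at 13.8 and PBS replicate 2 at 14.0. Pgk1 was listed at 13.2 and 11.8 FPKM in glucose, 14.1 and 9.75 in glucose with lipid, and 12.2, 11.5, 17.7 and 15.8 in PBS, where replicates 3 and 4 were highest.

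In the oxidative arm of the pentose phosphate pathway, glucose-6-phosphate dehydrogenase was 84.5 ± 2.9% G6pdx and 15.5 ± 2.9% of the endoplasmic reticulum form H6pd in PBS libraries (SD, n = 4). G6pdx was listed at 45.9 and 50.9 FPKM in glucose, 92.1 and 42.5 in glucose with lipid, and 49.8, 52.5, 52.4 and 48.1 in PBS. Phosphogluconate dehydrogenase (Pgd), the second NADPH-producing enzyme, was listed at 56.8 and 57.3 FPKM in glucose, 116 and 52.9 in glucose with lipid, and 58.5, 49.4, 64.6 and 53.1 in PBS. For both enzymes glucose with lipid replicate 1 stood far above the other 7 libraries, which lay close together. H6pd lay between 5.44 and 10.9 FPKM.

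Pgls, which opens the lactone between these dehydrogenases, was listed at 187 and 174 FPKM in glucose, 188 and 168 in glucose with lipid, and 165, 158, 229 and 234 in PBS. PBS replicates 3 and 4 lay above all treated libraries and PBS replicates 1 and 2 below them. In the non-oxidative arm, Tkt was listed at 219 and 194 FPKM in glucose, 244 and 184 in glucose with lipid, and 213, 191, 264 and 219 in PBS, with overlap. Taldo1 was listed at 198 and 217 FPKM in glucose, 306 and 199 in glucose with lipid, and 173, 172, 265 and 229 in PBS. It was highest in glucose with lipid replicate 1 and lowest in PBS replicates 1 and 2. The epimerase Rpe was listed at 19.4 and 24.7 FPKM in glucose, 27.6 and 20.9 in glucose with lipid, and 23.4, 23.9, 21.4 and 20.9 in PBS, with overlap. The isomerase Rpia was listed at 1.94 and 2.61 FPKM in glucose, 2.27 and 1.97 in glucose with lipid, and 2.08, 1.84, 1.54 and 1.43 in PBS, lowest in PBS replicates 3 and 4.

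The first comparison asked how glucose injection altered these genes relative to its PBS controls, replicates 3 and 4. Most of the 34 genes were listed lower after glucose: 27 had a log2 fold change of FPKM + 1 below 0 and 7 above, with a median of -0.18, while the median of all 11931 genes tested was -0.00014 and 50.02% of them were below 0. When PBS replicates 1 and 2 served as controls instead, 17 genes were above and 17 below 0, with a median of -0.01, and with all 4 PBS libraries 25 were below, with a median of -0.12. With small-RNA rows removed and the libraries rescaled, the median of all genes moved to 0.07 and that of the 34 genes to -0.14, with 22 below 0 and 12 above, so the gap between these medians was -0.21 against -0.18 before. No gene of the 34 passed an adjusted p of 0.05 (limma, Benjamini-Hochberg over all genes), where 0.101% of all genes did. At an unadjusted p under 0.05, 7 of the 34 were lower, against 8.44% of all genes, and 0 were higher, against 6.41%. In 15 of the 34 both glucose libraries lay below both PBS libraries, against 24.8% of all genes, and in 5 above, against 22.3%.

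The 7 genes lower at an unadjusted p under 0.05 were Eno1, Pgam1, Pgls, Tpi1, Ldha, Pfkl and Pfkp. The 4 with the smallest p had log2 fold changes of -1.97 ± 0.33 (SE, adjusted p = 0.119) for Eno1, -0.62 ± 0.16 (adjusted p = 0.217) for Pgam1, -0.36 ± 0.10 (adjusted p = 0.223) for Pgls and -0.40 ± 0.11 (adjusted p = 0.228) for Tpi1. Ldha differed by -0.52 ± 0.15 (SE, adjusted p = 0.230). With Eno1 and Gm5506 summed, an alternative added after the data were seen, the Eno1 value was -0.33 ± 0.16 (SE, adjusted p = 0.384). Over the alternatives that kept the Eno1 row by itself, its adjusted p ranged from 0.0617 to 0.680. Against PBS replicates 1 and 2 the Pgls difference turned to 0.16, that of Ldha was 0.02 and that of Tpi1 was -0.02, while Pgam1 was at -0.38 and Eno1 at -0.82. Without PBS replicate 3, in which 11 of the 34 genes had their highest value, the median of the 34 genes was -0.13 with 20 below 0, and Ldha was at -0.31, Tpi1 at -0.26 and Pfkl at -0.24, the last compared with -0.50 with it.

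Glucose with lipid was compared with PBS replicates 1 and 2 to ask the same of the combined injection. Of the 34 genes, 26 were above 0 and 8 below, with a median log2 fold change of 0.13 against 0.01 over all genes, of which 51.7% were above 0. None passed an adjusted p of 0.05 (limma), where 0.0754% of all genes did. At an unadjusted p under 0.05, 3 were higher, against 5.87% of all genes, and 0 were lower, against 5.93%. In 10 of the 34 both treated libraries lay above both PBS libraries, against 22.2% of all genes, and in 2 below, against 21.8%. Without glucose with lipid replicate 1 the median was 0.00 with 17 genes on each side. When small-RNA rows were removed and the libraries rescaled to their remaining total, the median over all genes moved to -0.12 and that of the 34 genes to -0.02, with 15 above 0 and 19 below.

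The genes with the smallest p in this comparison were Pfkfb4, at a log2 fold change of 1.03 ± 0.30 (SE, adjusted p = 0.283), Taldo1 at 0.51 ± 0.19 (adjusted p = 0.358), Aldoc at 0.57 ± 0.21 (adjusted p = 0.360) and Hk2 at 0.43 ± 0.19 (adjusted p = 0.430). Without glucose with lipid replicate 1 these differences were 0.64 for Pfkfb4, 0.20 for Taldo1, 0.82 for Aldoc and 0.31 for Hk2. Without replicate 2, so that replicate 1 stood alone and was assumed to vary like the other groups, Aldoc was at 0.32 (and at 0.38 without PBS replicate 2). Slc16a3, Pgd, Taldo1 and G6pdx, which passed only in that setting, were at 1.84, 1.09, 0.82 and 0.84. Far more of all genes passed there too, and with 1 library in the group these calls were not read as results. Over all alternatives the adjusted p ranged up to 0.884 for Slc16a3, 0.972 for Pgd, 0.996 for Taldo1 and 0.926 for G6pdx, with Taldo1 at 0.00 against PBS replicates 3 and 4. Without replicate 1, Slc16a3 was at -0.44, Pgd at -0.02 and G6pdx at -0.26. In replicate 1, 11 of the 34 genes had their highest value and 7 were more than 1.5 times replicate 2. The library is the one in which the 13 neutrophil and 8 monocyte markers were highest. The part of these markers in the Slc16a3, Pgd, Taldo1 and G6pdx values was not tested.

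**Figure D4:**
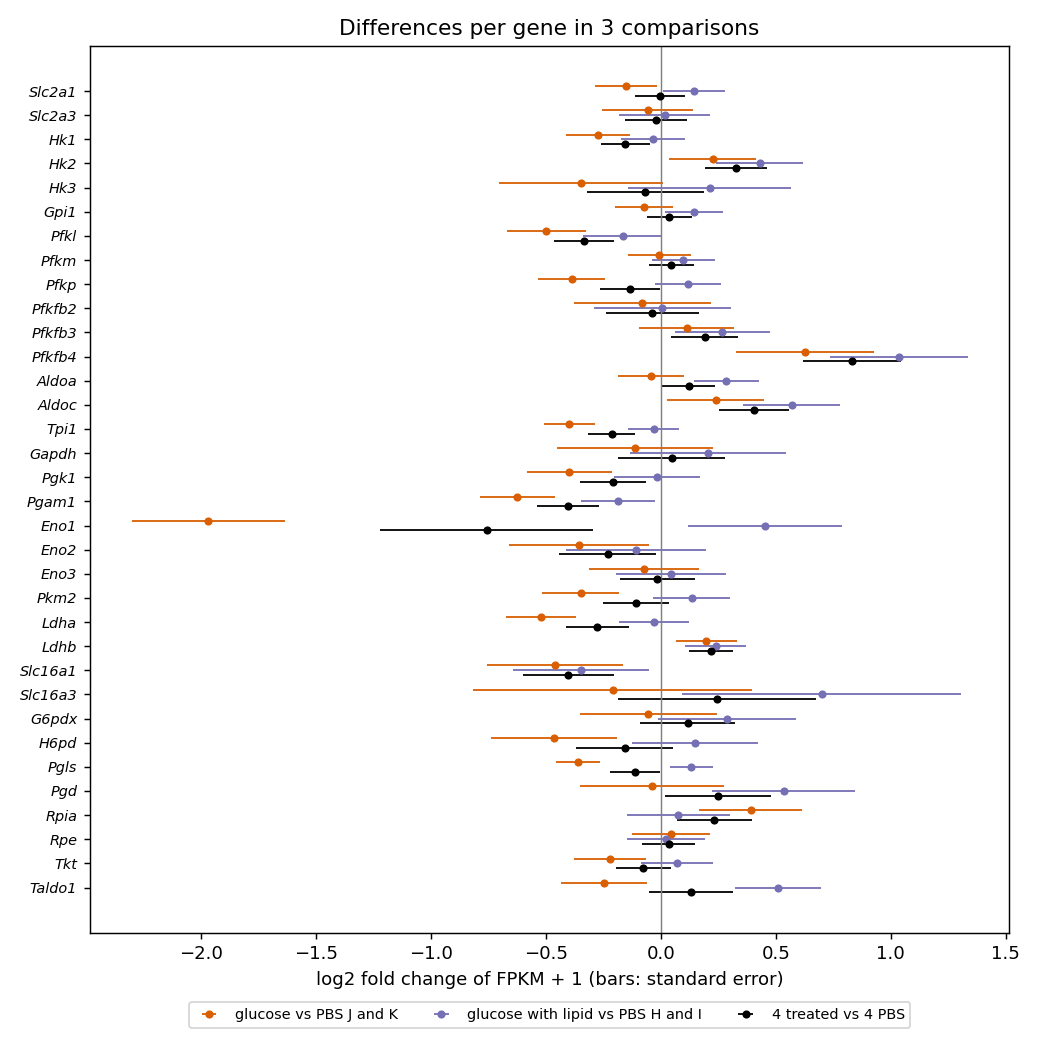
Difference of each gene in log2 of FPKM + 1 (points) with its standard error (bars) in 3 comparisons, with a line at 0. Pfkfb4 lies at 0.63, 1.03 and 0.83 in glucose, glucose with lipid and both treatments together, and no point passed an adjusted p of 0.05.

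The difference between the glucose effect and the glucose with lipid effect was tested in the same fit, each against the PBS pair assigned to it from names. This difference therefore also holds the gap between the PBS pairs. It was not fitted with the control sets exchanged. It was below 0 in 32 of the 34 genes, with a median of -0.33 against -0.03 over all genes, of which 53.3% were below 0. None passed an adjusted p of 0.05 (limma), where 0.0168% of all genes did, and 5 were lower at an unadjusted p under 0.05, against 6.03% of all genes, with 0 higher, against 6.18%. The Eno1 difference was -2.42 ± 0.47 (SE, adjusted p = 0.238), that of Pgls -0.49 ± 0.13 (adjusted p = 0.301) and that of Taldo1 -0.76 ± 0.27 (adjusted p = 0.338). These depend on the assigned controls. With the control sets exchanged, Pgls was at 0.16 after glucose and -0.38 after glucose with lipid. Taldo1 was then at 0.26 and 0.00, and Eno1 at -0.82 and -0.70. Without glucose with lipid replicate 1 the Taldo1 difference was -0.45 and the median of the 34 genes -0.17 with 28 genes below 0, and with small-RNA rows removed 25 were below and 9 above, at a median of -0.13 against 0.17 over all genes. Without replicate 2, so that replicate 1 stood alone, Slc16a3 was at -2.05 and Taldo1 at -1.07. Both passed only in that setting, in which far more of all genes passed too. Over the alternatives their adjusted p ranged up to 0.843 and 0.621.

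The PBS pairs, which no treatment separates, were compared in the same way. PBS replicates 1 and 2 against replicates 3 and 4 had a median of -0.15 over the 34 genes, 22 below 0 and 12 above, against 0.00 over all genes. None passed an adjusted p of 0.05 (limma), where 0.0503% of all genes did. At an unadjusted p under 0.05, 9 were lower, against 9.72% of all genes, and 0 higher, against 7.53%: Pgls, Ldha, Eno1, Tpi1, Pfkp, Aldoa, Taldo1, Pkm2 and Pgk1. The Pgls difference was -0.52 ± 0.10 (SE, adjusted p = 0.1004) and that of Ldha -0.54 ± 0.15 (adjusted p = 0.165), the latter -0.34 without PBS replicate 3. In 12 genes replicates 1 and 2 both lay below replicates 3 and 4, against 25.3% of all genes, and in 4 above, against 24.4%. The median was -0.28, -0.03, -0.06 and -0.25 without PBS replicate 1, 2, 3 and 4. This comparison shares its PBS replicates 3 and 4 with the glucose comparison, so the values are only set side by side: Pgls was at -0.36 after glucose and -0.52 here, Ldha at -0.52 and -0.54, and Tpi1 at -0.40 and -0.38, the last -0.24 without PBS replicate 3. Marker sums differed between the same pairs in both directions, given here for PBS replicates 1 to 4. Mast cell and basophil markers summed to 128.7, 128.9, 59.3 and 18.5 FPKM, and erythroid markers to 607, 623, 549 and 278 FPKM. Neutrophil markers, higher in replicates 3 and 4, summed to 516, 474, 796 and 563 FPKM. So were monocyte and macrophage markers, at 40.3, 35.3, 67.9 and 59.2 FPKM, and T and NK cell markers, at 418, 361, 475 and 465 FPKM. The stem and progenitor and the B cell sums overlapped between the pairs. The part of these markers in these differences was not tested.

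The 4 treated libraries were also set against the 4 PBS libraries together, in a fit with a term for the control set. The median of the 34 genes was -0.02, 15 above 0 and 19 below, against -0.01 over all genes, and moved between -0.14 (without glucose with lipid replicate 1) and 0.03 (without PBS replicate 3) as each library was left out. None passed an adjusted p of 0.05 (limma), where 0.268% of all genes did. At an unadjusted p under 0.05, 4 were higher, Pfkfb4, Aldoc, Hk2 and Ldhb, against 6.18% of all genes, and 2 lower, Pgam1 and Pfkl, against 5.22%.

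The groups of 4 did not overlap in 2 of the 34 genes, 1 in each direction. Both counts are near the shares of all genes given next, so they do not set the 34 genes apart. Pfkfb4 (chr9:108991778-109032228, plus strand, GENCODE vM21 on GRCm38) was the only gene of the 34 with all treated libraries above all PBS libraries, against 3.55% of all genes, and Pgam1 (chr19:41911923-41918660, plus strand) the only gene with all below, against 2.84%. Pfkfb4 differed by 0.83 ± 0.21 (SE, adjusted p = 0.246, with 0.155 to 0.527 over the alternatives) on the log2 scale, by 0.63 within the glucose set (0.35 without PBS replicate 3) and 1.03 within the glucose with lipid set (0.64 without its replicate 1), and the value for both sets stayed between 0.63 and 0.98 as each library was left out. Pgam1 differed by -0.40 ± 0.13 (SE, adjusted p = 0.347), by -0.62 within the glucose set and -0.19 within the other, the latter -0.05 and -0.32 without PBS replicate 1 and 2. Aldoc was at 0.40 ± 0.15 (adjusted p = 0.385) and Pfkl at -0.33 ± 0.13 (adjusted p = 0.396), which was -0.19 without PBS replicate 3. Without glucose with lipid replicate 1, 3 genes had the 3 remaining treated libraries above all 4 PBS libraries, Pfkfb4, Aldoc and Ldhb, against 5.62% of all genes, and 3 below, Pfkl, Pgam1 and Slc16a3, against 5.18%. Pgam1 is among the 4 genes with a near-identical copy, and Pfkfb4, Aldoc, Ldhb, Pfkl and Slc16a3 had none at or above 99% identity.

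**Figure D5:**
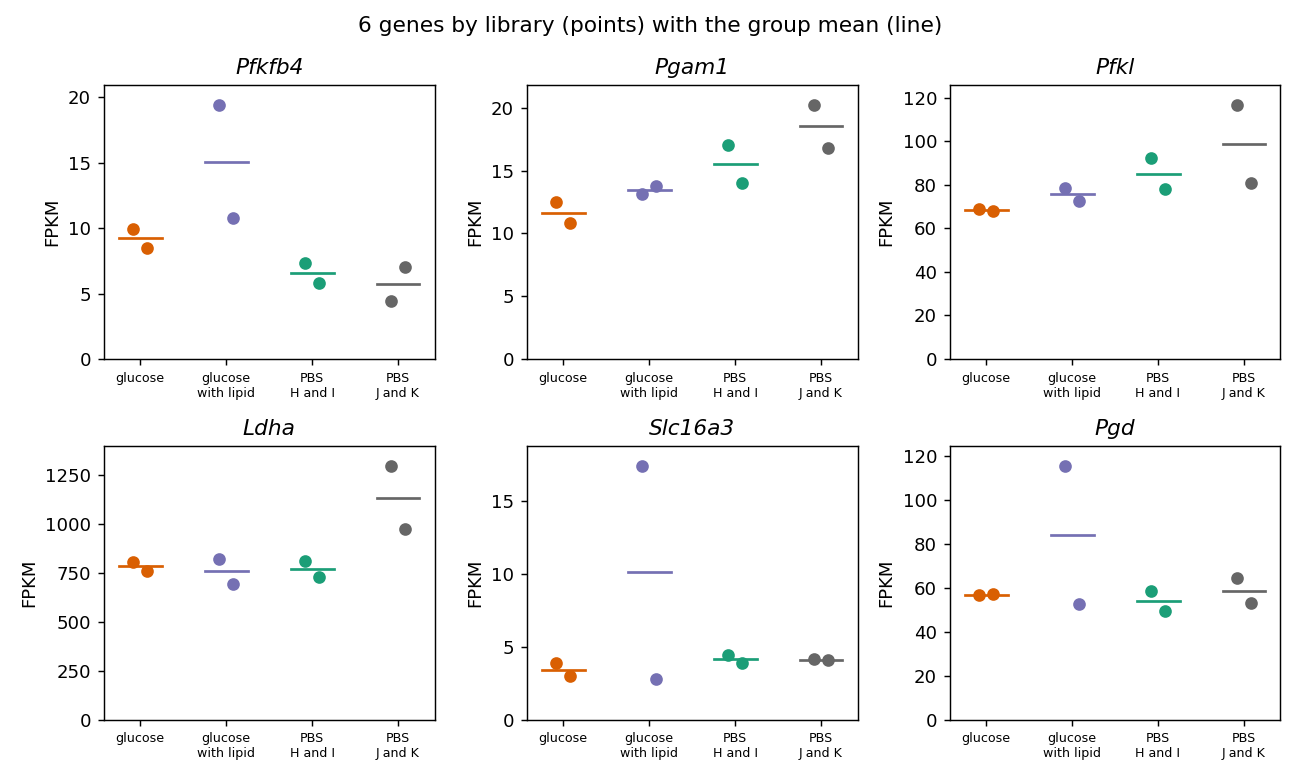
FPKM by library (points) with the group mean (line) for 6 genes, axes starting at 0. Pfkfb4 is 8.46 to 19.4 in treated and 4.44 to 7.37 in PBS libraries, Ldha is highest in PBS replicates 3 and 4, and Slc16a3 and Pgd are highest in glucose with lipid replicate 1.

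The promoters of 3 genes are shown: Ldha as the most abundant gene, and Pfkfb4 and Pgam1 as the pair whose treated and PBS libraries did not overlap. Each window is 250 bases before to 50 after the start of the gene in RefSeq (GRCm38.p6), written 5′ to 3′ on the strand of the gene. The Ldha window is the one with more ACGTG matches of its 2 in the table. The Pgam1 window ends at 41911920, before the start of that gene in GENCODE vM21 at 41911923, so none of it lies in the GENCODE gene. Capitals mark ACGTG and its reverse complement CACGT, a form of the core of the hypoxia response element, and CACGTG, the E-box, which contains ACGTG. The other form of that core, GCGTG, was neither marked nor counted.
Ldha, chr7:46845554-46845853, plus strand: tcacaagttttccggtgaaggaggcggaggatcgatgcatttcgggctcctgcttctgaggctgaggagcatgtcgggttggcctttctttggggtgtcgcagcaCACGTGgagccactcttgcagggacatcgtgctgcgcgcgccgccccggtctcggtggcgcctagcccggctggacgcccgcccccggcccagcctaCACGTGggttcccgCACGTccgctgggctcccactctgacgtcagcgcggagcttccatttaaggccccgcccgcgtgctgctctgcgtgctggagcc
Pfkfb4, chr9:108991652-108991951, plus strand: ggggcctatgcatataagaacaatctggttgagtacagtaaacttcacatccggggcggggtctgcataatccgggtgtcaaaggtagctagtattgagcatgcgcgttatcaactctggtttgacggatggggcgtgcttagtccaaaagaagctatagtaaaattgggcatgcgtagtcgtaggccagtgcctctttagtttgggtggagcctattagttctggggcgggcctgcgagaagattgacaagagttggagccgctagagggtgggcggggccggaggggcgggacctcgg
Pgam1, chr19:41911621-41911920, plus strand: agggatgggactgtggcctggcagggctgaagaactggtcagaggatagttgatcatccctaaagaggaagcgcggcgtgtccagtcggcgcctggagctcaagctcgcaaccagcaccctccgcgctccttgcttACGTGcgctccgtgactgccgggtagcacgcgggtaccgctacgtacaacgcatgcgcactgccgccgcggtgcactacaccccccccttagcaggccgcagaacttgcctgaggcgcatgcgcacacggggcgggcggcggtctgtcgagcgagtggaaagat

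Counted on both strands, the Ldha window held 5 matches to ACGTG, 4 of them in its 2 CACGTG sites, the Pgam1 window 1 and the Pfkfb4 window none. The Pfkfb4 window as printed does hold GCGTG, so it does not lack every form of the core. Of the 34 genes, 33 had a window in the RefSeq table, and 17 of these had ACGTG in at least 1 window, against 21.8% of 27025 genes. By window, 43.8% of 48 windows of these genes held it, against 19.6% of all 32851 windows. CACGTG was found for 5 of the 33 genes, against 8.09% of all genes, and in 10.4% of their windows against 7.15%. A match is a run of letters only, and no binding was measured.

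Genes of neighbouring routes were taken from a list of 70 symbols covering other glucose transporters and isoenzymes, gluconeogenesis, glycogen, the hexosamine and polyol routes and serine synthesis. Of these, 69 had a row and 50 entered the tests. None passed an adjusted p of 0.05 (limma) in any of the 5 comparisons. At an unadjusted p under 0.05, 3 of the 50 were higher and 4 lower after glucose, against 6.41% and 8.44% of all genes, and 3 higher and 3 lower after glucose with lipid, against 5.87% and 5.93%. In the 4 treated against the 4 PBS libraries 3 were higher and 4 lower, against 6.18% and 5.22%. These shares are near those of all genes. Their median log2 fold changes were -0.06, 0.01 and -0.02 in these 3 comparisons.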

How the data were processed

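RNA sequencing values of 8 libraries were used. Per the submitters' processing notes, the tools were Cuffnorm 2.2.1, SAMtools 1.0, Bowtie2 2.2.3 and TopHat2 2.0.13, listed with no order, and the build was mm10. The deposited values are FPKM made by the authors, 1 per gene symbol, read as such from the values and the naming of Cuffnorm because the headers state no unit. For the annotation and for reads with several matches, the treatment was not given in the sources used here.

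Genes reaching 1 FPKM in 2 or more libraries were fitted as log2(FPKM + 1), a pseudocount of 1, in limma 3.58.1 (R 4.3.3), with 4 group means for all 8 libraries, moderated variances with a trend, 2-sided tests and Benjamini-Hochberg adjustment at 0.05. Fold changes on this scale understate the change of low genes. The 4 treated against 4 PBS fit had the control set as a block. Isoform shares are percent of the summed FPKM of the listed genes of a step. Copies were searched with blastn 2.17.0. Values in every library are given for the most abundant gene of each step, for the 4 genes with the smallest p in each of 3 comparisons, and for others named after their values were seen, Hk2, Ldhb, Slc16a3 and Pgd among them. The genes, lists and tests were chosen with earlier results of these data known. Glucose with lipid and PBS share letters H and I, but nothing states that a letter marks a shared day or animal, so libraries were not paired. Alternatives were 2 other pseudocounts (0.1 and 0.5), other filters and scalings, other control sets, a replicate block and leaving out each library. As deposited, the median ratio of gene values to their geometric mean over the libraries was already 0.998 to 1.003. Scaling by that median ratio could therefore change little.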

Additional observations from a re-analysis of the deposited data

How the results depend on the processing

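Groups of 2 libraries and a control assignment read from names limit every comparison, and depth is known only by estimate. Over 21 settings, 214 of 216 values of the 12 named gene results kept their direction and stayed on the side of the threshold they had, which was not passing for all 12. This count does not measure robustness. Several settings, such as leaving out a library outside the comparison, cannot change the fold change. The 12 results were also chosen by smallest p, and Pfkfb4, Pgam1 and Aldoc appear among them in different comparisons. With the control sets exchanged Tpi1 after glucose was at -0.02 and Taldo1 after glucose with lipid at 0.00, and Eno1 after glucose was at -0.33 when summed with Gm5506. The exceptions were Pgls after glucose, which turned to 0.16 against PBS replicates 1 and 2, and Taldo1 after glucose with lipid, 0.82 and past the threshold without glucose with lipid replicate 2. Among the 34 genes the count passing was 0 in every setting run except without that library, after glucose with lipid and in the difference of the effects. In that setting replicate 1 stood alone in its group, and the count over all genes rose as well.

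The count over all genes was 12 after glucose, 19 with a pseudocount of 0.1 and 24 with small RNAs removed, and 8 to 32 as each library was left out. After glucose with lipid it was 9, with 3 unfiltered, 15 with small RNAs removed, 28 with the control sets exchanged, 29 with all 4 PBS, 4 with only the 4 libraries compared and 3 to 271 as each library was left out. The difference of the effects had 2, 1 with small RNAs removed and 2 to 141 by library. Between PBS pairs it was 6, with 2 unfiltered and 3 to 15 by library. For 4 treated against 4 PBS it was 32, with 17 unfiltered and 8 to 33 by library.

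The median log2 fold change of the 34 genes after glucose was -0.0073 with exchanged controls, and -0.25 to -0.13 by library. After glucose with lipid it was -0.015 with small RNAs removed and 0.0022 to 0.22 by library. For the difference it was -0.13 with small RNAs removed, where the median of all genes was 0.17, and -0.41 to -0.17 by library. Between PBS pairs it was -0.05 with small RNAs removed, where the median of all genes was 0.10, and -0.28 to -0.029 by library. For 4 against 4 it was -0.136 to 0.033 by library. Beyond these values the cause was not tested.

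For the letters H and I, deviations from the group means correlated at 0.066 over 11931 genes between same-lettered libraries. With groups of 2 libraries this sets a single difference against a single other, and glucose with lipid replicate 1 stood apart by its markers. The value therefore cannot show whether the letters mark pairs. With a replicate block by letter, 11 genes passed after glucose with lipid and 28 for 4 against 4, and 0 of the 34. Glucose and its PBS libraries share no letters.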

Other observations

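Within the neighbouring list, a few genes were picked out after their values were seen. Muscle glycogen phosphorylase (Pygm), which releases glucose units from glycogen, was listed at 6.86 and 8.16 FPKM in glucose, 5.28 and 10.4 in glucose with lipid, and 3.602, 3.32, 4.17 and 4.08 in PBS. All 4 treated libraries lay above all 4 PBS libraries, as they did in 3.55% of all genes. The Pygm difference of 0.82 on the log2 scale had the smallest adjusted p of the list in that comparison, 0.197 (limma), so it did not pass. Dera, of the same list, was listed at 44.1 and 42.03 FPKM in glucose and 45.8 and 43.5 in glucose with lipid. In PBS it was listed at 53.7, 54.15, 49.6 and 50.3 FPKM. Its treated libraries all lay below all PBS libraries, as in 2.84% of all genes, at a difference of -0.24 that did not pass either. Shmt2, the mitochondrial serine hydroxymethyltransferase, was listed at 107 and 93.3 FPKM in glucose, 97.4 and 88.9 in glucose with lipid, and 116, 94.03, 192 and 118 in PBS, with PBS replicate 3 well above the rest. Psat1, an enzyme of serine synthesis, was listed at 88.6 and 93.6 FPKM in glucose, 81.6 and 77.2 in glucose with lipid, and 93.1, 92.5, 135 and 104 in PBS, again highest in PBS replicate 3.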
